A study of Mus musculus with 18 samples.

Results

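The Rasgef1b locus was described here by its ATAC-seq peaks in bone marrow-derived macrophages (BMDMs). Its members are the peaks of the study's union set that overlap the gene body extended by 25 kb on both sides. These were 23 of 194284 peaks, and all 23 passed edgeR's filter on low counts, which left 194230 peaks for testing. The locus was chosen by its accessibility values in the LPS and LPS + IL-10 libraries, which fell strongly with IL-10, so the comparison of LPS + IL-10 with LPS is given as a description with no test.

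BMDMs were grown from 3 male Il10-/- C57BL/6J mice aged 12 weeks and divided over 6 groups of 3 libraries, 18 in all. All groups carried the Il10 deletion, so IL-10 was present only where it was added. Cells were left unstimulated, given 500 nM (+)-JQ1 alone, or given 10 ng/mL IL-10 alone. The other 3 groups received 50 ng/mL LPS for the last 4 hours of a 16 hour culture. They had (+)-JQ1 added 12 hours before LPS, IL-10 added 12 hours before LPS, or neither. The methods name a vehicle control before LPS and call unstimulated cells untreated, while the labels call the LPS group untreated as well. Any effect of vehicle was not tested. The 3 libraries of a group are biological replicates, described as matched across the groups, and the cells were grown as macrophages outside the animal.

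Rasgef1b encodes a guanine nucleotide exchange factor, a protein that loads small GTPases with GTP, and its best described substrates are the Rap2 proteins. In macrophages it is known as a gene that Toll-like receptor ligands such as LPS induce quickly. IL-10 restrains many LPS-induced genes, and (+)-JQ1 displaces BET proteins, readers of acetylated histones, from chromatin. In ATAC-seq a transposase cuts open DNA, so the reads over a region measure how accessible it is.

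The gene lies on the minus strand of chromosome 5, from 99646445 to 99681946 in build mm9 (GENCODE M1, ENSMUSG00000029333.8), and spans 35502 bp. Its main start site is at 99681946, and the annotation lists further start sites at 99672259 and 99663085. Transcript 001 has 14 exons, and its first intron is 9467 bp long. One peak covered the main start site, 9 lay in the gene body, 7 in the downstream flank (past the 3′ end) and 6 in the upstream flank, by peak midpoint. The authors had classed 4 members as promoter peaks and 19 as distal.

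Peaks covered 92.5% of the gene body. The median member was 1454 bp wide, against 956 bp over all peaks, and 4 members were wider than 5000 bp, a width that 2.11% of all peaks exceeded. Of the 22 gaps between neighbouring members, 14 were shorter than 500 bp and the shortest was 17 bp. The gene body and the flank just past its end were thus called as a nearly unbroken run of broad peaks, with 2 compact, dense peaks standing out of it. One of the compact peaks lay over the start site and the other 38.3 kb from it, past the 3′ end. The outermost members were 21.3 kb past the 3′ end and 16.0 kb before the start site. The next peaks outside the window lay 59.0 kb and 25.3 kb from the gene and held 1.54 ± 0.40 and 4.77 ± 1.00 CPM (counts scaled to each library's TMM-adjusted total, SD, n = 3) with LPS.

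The sequences of 3 regions show the contrast between the start site and the peaks around it. All were read from the mm9 genome on the minus strand, 5′ to 3′. The first is the 300 bases before the main start site (chr5:99681947-99682246). The second is the central 300 bases of the compact peak in the downstream flank (chr5:99643474-99643773). The third is the central 300 bases of an intronic peak, 1475 bp wide, 26.8 kb into the gene (chr5:99655030-99655329). The files do not give summits, so the centre of a peak is its midpoint. Capitals mark matches to the motifs named after the sequences.
Start site, upstream: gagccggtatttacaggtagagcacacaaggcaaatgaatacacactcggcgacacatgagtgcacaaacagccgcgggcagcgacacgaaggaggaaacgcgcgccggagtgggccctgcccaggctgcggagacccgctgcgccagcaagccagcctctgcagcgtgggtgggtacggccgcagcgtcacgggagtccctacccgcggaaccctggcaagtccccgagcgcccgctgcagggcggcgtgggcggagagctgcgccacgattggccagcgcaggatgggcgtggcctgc
Downstream flank peak: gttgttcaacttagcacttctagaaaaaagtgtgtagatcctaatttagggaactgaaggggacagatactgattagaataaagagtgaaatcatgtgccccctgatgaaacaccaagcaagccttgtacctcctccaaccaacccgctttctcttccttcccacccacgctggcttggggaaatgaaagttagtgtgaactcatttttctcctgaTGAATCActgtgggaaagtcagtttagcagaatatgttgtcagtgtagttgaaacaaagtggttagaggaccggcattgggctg
Intronic peak: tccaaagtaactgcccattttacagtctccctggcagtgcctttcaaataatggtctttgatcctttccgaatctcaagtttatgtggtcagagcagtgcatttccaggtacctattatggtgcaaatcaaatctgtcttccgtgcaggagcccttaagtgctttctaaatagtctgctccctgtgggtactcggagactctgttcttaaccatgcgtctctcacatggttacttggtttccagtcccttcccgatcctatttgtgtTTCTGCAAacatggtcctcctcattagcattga

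The start site lay in GC-rich DNA and the other peaks did not. The 300 bases before it held 68.3% G + C and 31 CpG dinucleotides, more CpG than 91.1% of 22367 protein-coding promoters of the same length, whose median was 9. The windows of the downstream flank peak and the intronic peak held 44% and 45% G + C, with 3 and 5 CpG. Over whole peaks, the start site peak held 61.2% G + C, above 97.4% of all peaks, while the median member held 44.4% and the median of all peaks was 46.2%.

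Motifs were searched on both strands, and none of the patterns contains another. In the central 300 bases, AP-1 (TGANTCA) matched in 2 of 23 members and in 12.1% of all peaks. C/EBP (TTGCNNAA) matched in 4 members and in 12.5% of all peaks, and STAT (TTCNNNGAA) in 2 members and 8.74%. ISRE (GAAANNGAAA) and PU.1 (GAGGAAGT) matched in 1 member each, against 4.40% and 4.58% of all peaks. CRE (TGACGTCA) and the kappaB consensus matched in 0 members, against 0.338% and 3.58% of all peaks. None of the 7 patterns was in the 300 bases before the start site. Over the 22367 promoters, AP-1 matched in 7.12%, C/EBP in 11.2%, STAT in 8.22%, kappaB in 4.88%, ISRE in 4.12%, PU.1 in 2.56% and CRE in 2.00%. Over full peak widths, AP-1 matches stood at 0.452 per kb in the members and 0.363 per kb in all peaks. STAT stood at 0.399 and 0.312 per kb and C/EBP at 0.452 and 0.431 per kb. Lower in the members were ISRE (0.0521 and 0.169), kappaB (0.0695 and 0.129), PU.1 (0.0868 and 0.104) and CRE (0 and 0.00972). The start site peak as a whole held 1 ISRE and 1 kappaB match. The central window shown for the flank peak has its AP-1 match at bases 217 to 223, and that of the intronic peak has a C/EBP match at bases 268 to 275.

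Total counts in peaks were between 12020526 and 25908198 per library, and the window held between 2597 and 12367 counts, or 0.0178% to 0.0577% of a library. A single member held between 3 and 2645 counts. The TMM factors that scaled the libraries were between 1.04 and 1.24 in unstimulated cells and between 0.896 and 1.05 in the other groups, so every comparison with unstimulated cells depends on the scaling. Scaling by total counts moved the median over all peaks (log2 fold-change) from -0.03 to -0.26 for LPS, from -0.08 to -0.37 for (+)-JQ1 and from -0.05 to -0.26 for IL-10, each against unstimulated cells. All 7 macrophage markers found in the annotation had a promoter peak, and their summed level was between 99.6 and 153 CPM in unstimulated cells and between 145 and 205 CPM in the other groups. None of 4 T cell and 2 mast cell markers had one. Promoter peaks were present for 2 of 3 B cell, 3 of 4 neutrophil, 3 of 3 epithelial, 2 of 3 fibroblast and 2 of 2 dendritic cell markers, and the part of other cells in these results was not tested. Fewer cells with an open locus and less opening per cell cannot be told apart in such bulk libraries.

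LPS raised accessibility along the whole gene and past its end, and least at the start site. The comparison asks how the locus responds to a bacterial stimulus. It shares the LPS libraries with the contrast that chose the locus, so rises are favoured by that choice. Of the 23 members, 19 were higher with LPS and 0 were lower (edgeR, FDR below 0.05 with an absolute log2 fold-change over 0.5), where 11.7% of all tested peaks were higher and 10.2% lower. With total-count scaling 17 members were higher and 0 lower, against 6.58% and 19.3% of all peaks. The 19 members called with TMM scaling included all 9 gene body peaks and the start site peak. The rest were 5 of 7 in the downstream flank and 4 of 6 in the upstream flank. The median log2 fold-change of the members was 1.08, against -0.03 over all peaks, and their range was 0.62 to 2.24.

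**Figure D1:**
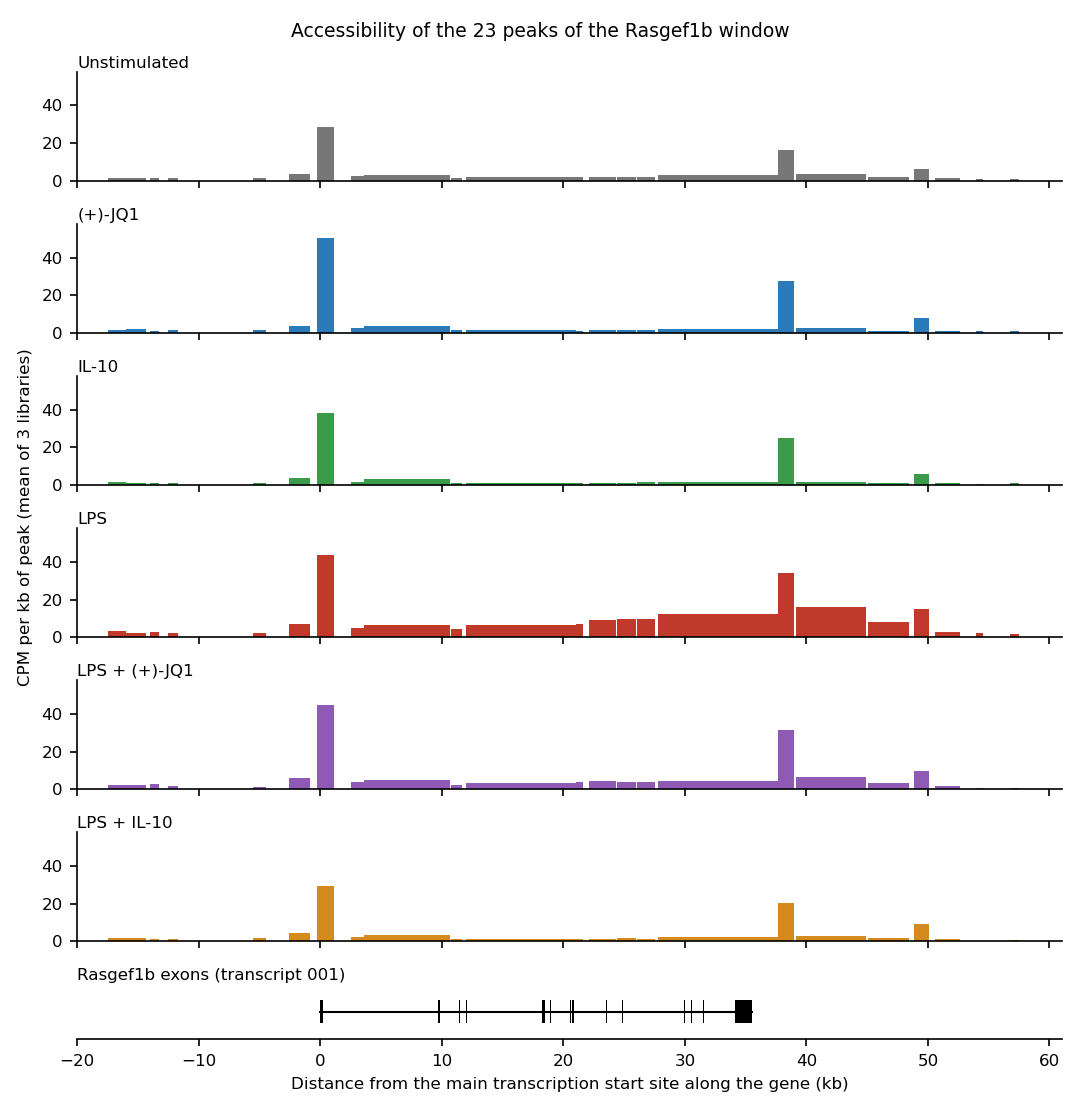
Mean accessibility of the 23 peaks (CPM per kb of peak, 3 libraries per group) against distance from the main start site in kb, with the exons of transcript 001 underneath. The start site peak and the compact peak at 38.3 kb were the tallest in every group, and the broad peaks over the gene body and past the 3′ end were highest with LPS.

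The gene body summed to 76.1, 81.8 and 88.5 CPM in unstimulated libraries and to 282, 302 and 281 CPM with LPS. The groups did not overlap, and the ratio was 3.51-fold (exact permutation test, two-sided, p = 0.1, the smallest that 3 against 3 libraries allow). The downstream flank went from 58.1 ± 9.5 to 190 ± 11.2 CPM (SD, n = 3), 3.29-fold. The upstream flank went from 14.0 ± 1.5 to 26.5 ± 1.6 CPM, 1.90-fold, and the start site peak from 40.7 ± 9.6 to 62.6 ± 5.0 CPM, 1.56-fold.

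The size of the rise climbed along the gene. The start site peak (99680794 to 99682217, over exon 1) had the smallest log2 fold-change of the members, 0.62 (SE 0.14). The next peaks into the gene body, 3.03 and 7.14 kb from the start site, had 0.93 and 1.01. The value was 1.40 at 11.2 kb, 1.87 at 16.5 kb and between 2.02 and 2.21 in the 5 peaks from 21.3 to 32.7 kb. Past the 3′ end it was 2.24 at 42.0 kb and 2.17 at 46.8 kb, and it dropped to between 0.90 and 1.27 beyond that. The compact peak at 38.3 kb, with 1.08, broke this run.

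The broadest member (99644321 to 99654158, 9837 bp) holds exons 11 to 14 and the 3′ UTR. It measured 26.7, 26.7 and 31.1 CPM in unstimulated cells and 118, 132 and 121 CPM with LPS. Every LPS library was above every unstimulated one, with a log2 fold-change of 2.13 (SE 0.14, edgeR's quasi-likelihood test, adjusted p = 7.29e-26). The next broad peak past the 3′ end (99637062 to 99642830) measured 17.6, 18.8 and 21.5 CPM against 89.9, 103 and 82.0 CPM, a log2 fold-change of 2.24 (SE 0.14). The peak after it (99633529 to 99636855) measured 5.42, 5.60 and 6.96 CPM against 27.2, 27.6 and 26.6 CPM. These 2 flank peaks hold no exon of Rasgef1b.

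The intronic peak whose sequence is shown (99654442 to 99655917) measured 2.54, 3.24 and 3.62 CPM without and 14.9, 14.9 and 13.9 CPM with LPS, a log2 fold-change of 2.21 (SE 0.20). The promoter-class peak over exons 4 to 8 (99660929 to 99669958), which includes the start site at 99663085, measured 17.5, 14.2 and 15.7 CPM against 57.4, 62.0 and 53.9 CPM. Its log2 fold-change was 1.87 (SE 0.14). The peak over exon 2 and the start site at 99672259 (99671284 to 99678321) rose less, from 18.3, 24.2 and 22.8 CPM to 44.7, 42.9 and 44.3 CPM, a log2 fold-change of 1.01 (SE 0.13). All 3 had an LPS range clear of the unstimulated range.

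At the start site itself the libraries held 31.8, 39.3 and 50.8 CPM without LPS and 68.2, 58.9 and 60.6 CPM with it. The groups did not overlap, but the call was lost with total-count scaling (log2 fold-change 0.40) and without replicate 1 (0.42). Density at the start site was 28.6 CPM per kb in unstimulated cells, against 2.43 CPM per kb over the gene body peaks. With LPS these densities were 44.0 and 8.53 CPM per kb. The broad peaks thus gained most in proportion while the start site stayed the densest.

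**Figure D2:**
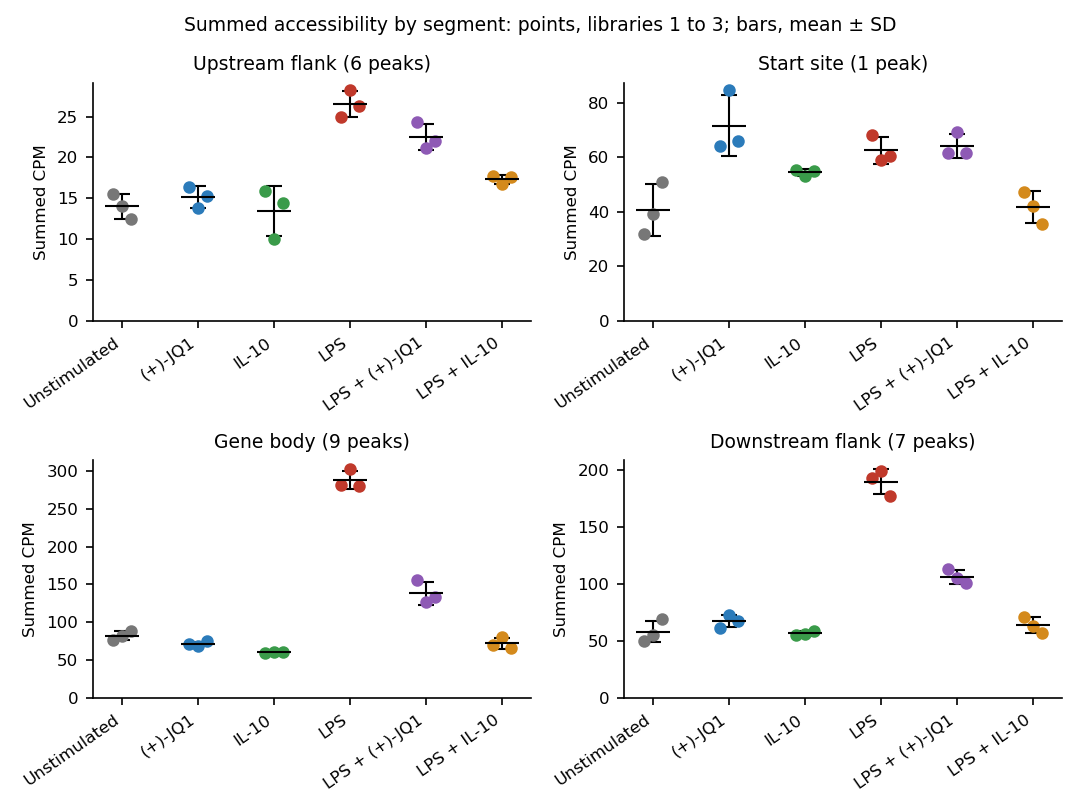
Summed CPM of the 4 segments of the window in each group, with points for libraries 1 to 3 and bars for the mean ± SD. In the gene body the LPS libraries sat between 281 and 302 CPM, above all other groups, while at the start site the LPS libraries (58.9 to 68.2 CPM) overlapped those with (+)-JQ1, alone or with LPS.

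Sequencing lanes were nested in the replicates, since replicate 1 ran in lane 5, replicate 3 in lane 6, and replicate 2 in lane 5 without LPS and in lane 6 with LPS. For the whole window, the log2 difference between LPS and unstimulated cells was 1.55 over all libraries, 1.64 within lane 5 (1 LPS library against 2) and 1.36 within lane 6 (2 against 1). At the start site alone it was 0.95 within lane 5 and 0.23 within lane 6.

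(+)-JQ1 lowered the LPS-opened gene body and downstream flank, and neither compact peak was called lower. This comparison also shares the LPS libraries with the contrast that chose the locus, so falls are favoured by that choice. With LPS + (+)-JQ1 against LPS, 11 of 23 members were lower and 0 higher, where 3.48% of all tested peaks were lower and 1.74% higher. They were 7 of 9 gene body peaks and 4 of 7 downstream flank peaks, and no upstream or start site peak was called. The median log2 fold-change was -0.82 over the members and -0.0026 over all peaks.

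The gene body summed to 155, 127 and 133 CPM with LPS + (+)-JQ1, below every LPS library and above every unstimulated one. Its log2 difference from LPS was -1.06, and -0.86 within lane 5 (1 library against 1) and -1.16 within lane 6 (2 against 2). The broadest member fell to 51.7, 39.6 and 44.5 CPM, a log2 fold-change of -1.45 (SE 0.13, edgeR's quasi-likelihood test, adjusted p = 1.96e-15), the largest fall in this comparison. The intronic peak fell to 7.30, 3.77 and 5.31 CPM (log2 fold-change -1.44, SE 0.18). The flank peaks at 42.0 and 46.8 kb fell by 1.28 (SE 0.13) and 1.33 (SE 0.15) on the log2 scale, and the peak over exons 4 to 8 fell by 1.03 (SE 0.13).

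With LPS + (+)-JQ1 the start site peak measured 61.6, 69.1 and 61.5 CPM, overlapping the LPS libraries, with a log2 fold-change of 0.03 (SE 0.14). The compact flank peak at 38.3 kb measured 40.7, 45.1 and 36.8 CPM against 48.1, 45.0 and 40.6 CPM with LPS, a log2 fold-change of -0.13 (SE 0.14). Neither was called. The peak over exon 2 was not called either, at -0.36 (SE 0.13).

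**Figure D3:**
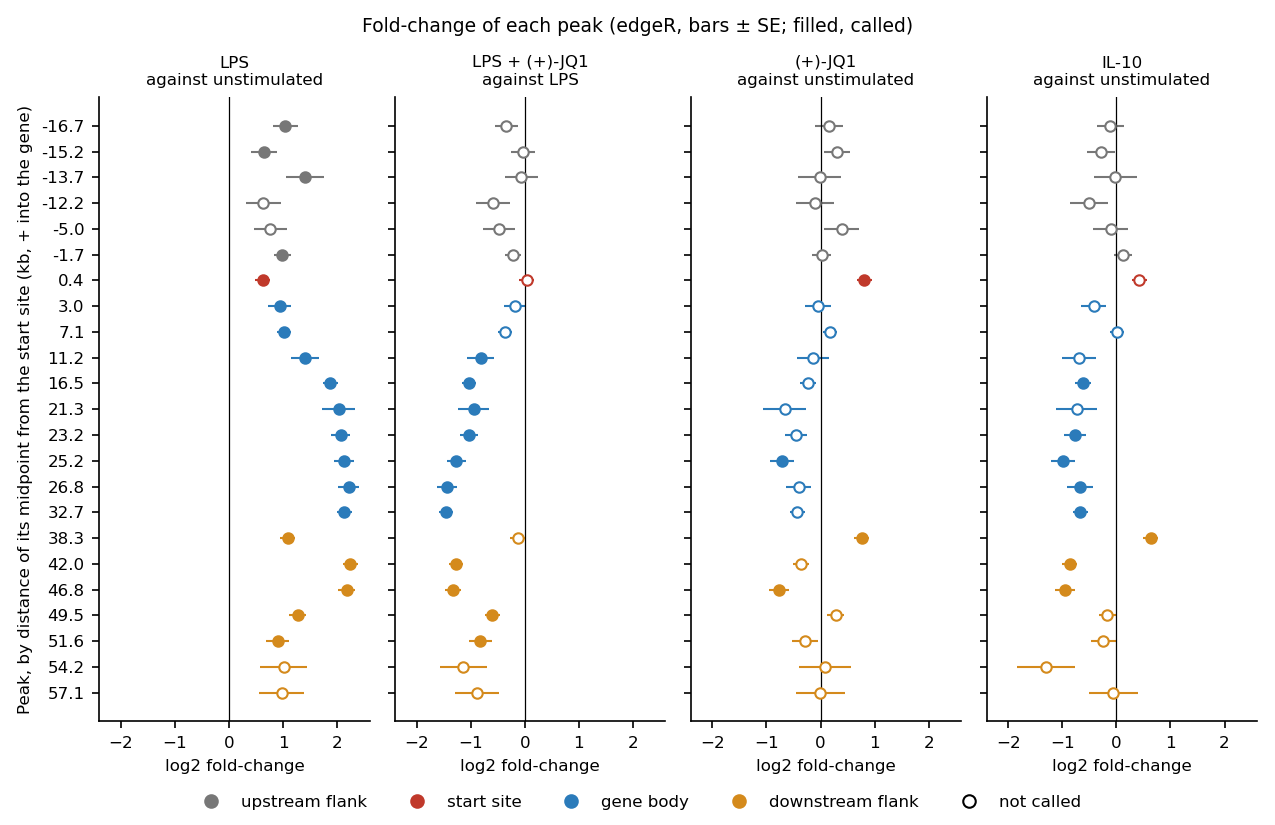
Log2 fold-change of each of the 23 peaks (points, with bars of ± 1 SE from edgeR) in 4 comparisons, ordered by the distance of the peak midpoint from the start site in kb. Filled points were called, and colours mark the segments. With LPS the values climb from 0.62 at the start site to 2.21 at 26.8 kb, and the falls with (+)-JQ1 under LPS are largest at 32.7 kb (-1.45) and 26.8 kb (-1.44), with falls of over 1.2 also at 25.2, 42.0 and 46.8 kb.

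The locus was picked for its fall with IL-10 under LPS, so the values of that comparison are given without a test. All 23 members were lower with LPS + IL-10 than with LPS, 21 of them by more than 0.5 on the log2 scale and 0 higher, where 14.4% of all peaks were lower and 12.6% higher by that much. The gene body measured 69.3, 80.3 and 66.4 CPM, the downstream flank 63.8 ± 7.0 CPM, the upstream flank 17.3 ± 0.54 CPM and the start site 41.6 ± 5.9 CPM (SD, n = 3). Among the named members, the intronic peak had the lowest log2 fold-change, -2.84 (SE 0.21), and measured 2.39, 2.38 and 1.42 CPM. The broadest member measured 23.3, 29.1 and 22.6 CPM, the peak at 42.0 kb 17.3, 18.9 and 15.0 CPM, and the peak over exons 4 to 8 10.3, 13.4 and 13.2 CPM. The start site peak had -0.59 (SE 0.14) and the compact flank peak -0.73 (SE 0.14).

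Summed over the window, the 6 groups stood in this order. LPS held 567 ± 21.6 CPM, LPS + (+)-JQ1 331 ± 19.9, (+)-JQ1 alone 225 ± 13.4, unstimulated 195 ± 23.7, LPS + IL-10 195 ± 15.9 and IL-10 alone 185 ± 4.3 CPM (SD, n = 3). The 2 highest groups were separate from each other and from the rest, while the unstimulated libraries (174 to 221 CPM) overlapped those of LPS + IL-10 (176 to 205 CPM), of IL-10 alone (180 to 188 CPM) and of (+)-JQ1 alone (213 to 240 CPM).

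IL-10 without LPS lowered the far gene body and the broad flank peaks below their unstimulated level. This comparison uses neither the LPS nor the LPS + IL-10 libraries. With IL-10 alone, 7 of 23 members were lower and 1 was higher, where 3.50% of all tested peaks were lower and 5.16% higher. The 7 were 5 gene body peaks between 16.5 and 32.7 kb and the flank peaks at 42.0 and 46.8 kb. The median log2 fold-change was -0.42 over the members and -0.05 over all peaks. The gene body measured 59.4, 60.9 and 60.0 CPM, below all 3 unstimulated libraries (log2 difference -0.45, exact permutation test, two-sided, p = 0.1). Within lane 5 the difference was -0.39 and within lane 6 it was -0.56.

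The flank peak at 42.0 kb measured 9.68, 10.7 and 11.4 CPM with IL-10 alone, a log2 fold-change of -0.87 (SE 0.15, edgeR's quasi-likelihood test, adjusted p = 1.28e-05), and the peak at 46.8 kb had -0.95 (SE 0.18). The broadest member measured 19.2, 17.8 and 16.4 CPM, at -0.66 (SE 0.14). The compact flank peak at 38.3 kb went the other way, to 33.1, 30.3 and 34.7 CPM against 16.5, 18.3 and 28.2 CPM, a log2 fold-change of 0.63 (SE 0.15). That rise lost its call with total-count scaling (0.44) and without replicate 1 or replicate 2. The start site peak measured 55.5, 53.0 and 55.1 CPM, above every unstimulated library, and its log2 fold-change of 0.42 (SE 0.14) was under the 0.5 needed for a call. Without replicate 2 the falls called were 3 of these 7, at 16.5, 42.0 and 46.8 kb, where 0.404% of all peaks were called lower.

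Few members were called with (+)-JQ1 without LPS. With (+)-JQ1 alone 2 of 23 were higher and 2 lower than in unstimulated cells, where 7.85% of all tested peaks were higher and 3.15% lower. The share that rose (8.70% of members) was near that of all peaks, and each of the 4 calls was lost without replicate 2 or without replicate 3. The 2 that rose were the start site peak and the compact flank peak. At the start site the libraries measured 64.0, 84.5 and 66.1 CPM, a log2 fold-change of 0.81 (SE 0.14, edgeR's quasi-likelihood test, adjusted p = 5.23e-06), and without replicate 2 the adjusted p was 0.0663. The flank peak measured 32.7, 40.6 and 33.8 CPM, at 0.76 (SE 0.15), and its call was lost with total-count scaling (0.48) and without replicate 2 (adjusted p = 0.123). The falls were the peak at 46.8 kb, at 2.92, 4.41 and 3.35 CPM (-0.77, SE 0.18), and the peak at 25.2 kb over exon 10 (-0.71). Neither fall was called without replicate 3. Total-count scaling called 7 members lower in place of 2, and over all peaks it called 14.1% lower and 1.97% higher. For the whole window the log2 difference was 0.21, and -0.07 with total-count scaling, so its sign rested on the scaling. Within lane 5 it was 0.31 and within lane 6 it was 0.02. The gene body alone measured 71.1, 68.5 and 74.6 CPM, below every unstimulated library (log2 difference -0.20, exact permutation test, two-sided, p = 0.1). Its difference was -0.18 within lane 5 and -0.25 within lane 6. The broadest member had a log2 fold-change of -0.43 (SE 0.14), smaller in size than the 0.5 needed for a call.

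The ratio of gene body to start site counts within one library needs no scaling, and it was added after the values were seen, with no test. It was 2.39, 2.08 and 1.74 in unstimulated libraries, 1.11, 0.81 and 1.13 with (+)-JQ1 alone and 1.07, 1.15 and 1.09 with IL-10 alone. With LPS it was 4.13, 5.13 and 4.63, with LPS + (+)-JQ1 2.52, 1.83 and 2.17, and with LPS + IL-10 1.47, 1.91 and 1.87. LPS libraries thus stood above all others, and those of either treatment alone below all others. LPS + (+)-JQ1 and LPS + IL-10 libraries overlapped the unstimulated ones.

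**Figure D4:**
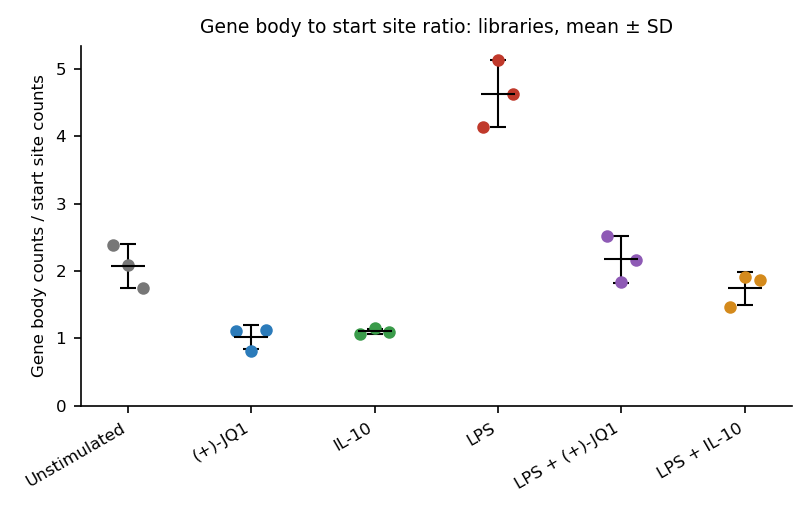
Counts over the 9 gene body peaks divided by counts over the start site peak in each library (points), with the mean ± SD of each group. LPS libraries lie between 4.13 and 5.13, and libraries with (+)-JQ1 or IL-10 alone lie between 0.81 and 1.15.

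LPS still opened the gene body in (+)-JQ1-treated cells. Neither group of this comparison was used in choosing the locus. The rise (1.93-fold) was smaller than the 3.51-fold without treatment. The LPS libraries behind the 3.51-fold helped to choose the locus, so that difference in size is favoured by the choice. With LPS + (+)-JQ1 against (+)-JQ1 alone, 11 of 23 members were higher and 0 lower, where 5.70% of all tested peaks were higher and 3.58% lower. They were 7 gene body peaks, 2 downstream and 2 upstream flank peaks. The median log2 fold-change was 0.72 over the members and -0.0082 over all peaks. The gene body went from 71.4 ± 3.1 to 138 ± 15.0 CPM (SD, n = 3), 1.93-fold, and the log2 difference was 1.15 within lane 5 and 0.80 within lane 6. The peak at 46.8 kb had 1.61 (SE 0.17, edgeR's quasi-likelihood test, adjusted p = 1.08e-12), the peak at 42.0 kb 1.33 (SE 0.14) and the broadest member 1.11 (SE 0.14). Neither the start site peak (-0.16, SE 0.14) nor the compact flank peak (0.19, SE 0.14) was called.

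The difference between the LPS responses with and without (+)-JQ1 was tested as an interaction. It includes the LPS libraries, whose values helped to choose the locus, so a value below 0 is favoured by that choice. With TMM scaling it was below 0 in all 23 members and called in 7, where 3.18% of all tested peaks were called lower and 0.648% higher. With total-count scaling it was below 0 in 20 members and called in 5, where 0.947% of all peaks were called lower and 2.41% higher. The values of the 7 called with TMM scaling were between -1.04 and -0.78. They were the broadest member (-1.02, SE 0.19, edgeR's quasi-likelihood test, adjusted p = 0.000629), the intronic peak, the peak over exons 4 to 8, the start site peak, and the flank peaks at 38.3, 42.0 and 49.5 kb. At the start site and at 38.3 kb, (+)-JQ1 alone against unstimulated cells had log2 fold-changes of 0.81 and 0.76. In the broad peaks, LPS + (+)-JQ1 was below LPS. Without replicate 1 the interaction was called in 3 of 23 members, where 0.424% of all peaks were called lower. Without replicate 2 edgeR called 0 members (8 had an unadjusted p under 0.05) and 0.0448% of all peaks lower. In that setting the 7 members had values between -1.03 and -0.64, with adjusted p between 0.173 and 0.396.

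In IL-10-treated cells LPS raised 4 of the 23 members. This comparison shares the LPS + IL-10 libraries with the contrast that chose the locus, so a small response is favoured by that choice. With LPS + IL-10 against IL-10 alone, 4 of 23 members (17.4%) were called higher and 0 lower. Of all tested peaks 8.93% were higher and 6.47% lower. The log2 fold-change was above 0 in 19 of the 23 members. The 4 were the flank peaks at 42.0 kb (0.69, SE 0.15), 46.8 kb (0.77, SE 0.18) and 49.5 kb (0.70) and the gene body peak at 25.2 kb (0.62). The median log2 fold-change was 0.25 over the members and 0.0014 over all peaks. The gene body went from 60.1 ± 0.74 to 72.0 ± 7.3 CPM (SD, n = 3), 1.19-fold. Its groups did not overlap (exact permutation test, two-sided, p = 0.1). The log2 difference was 0.21 within lane 5 and 0.28 within lane 6. At the start site the log2 fold-change was -0.39 (SE 0.14) and in the broadest member 0.49 (SE 0.14). Both were smaller in size than the 0.5 needed for a call. The start site groups did not overlap, at 35.5 to 47.3 CPM with LPS + IL-10 against 53.0 to 55.5 CPM with IL-10 alone. A test of the difference from the response without IL-10 would use the contrast that chose the locus and was not made.

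**Figure D5:**
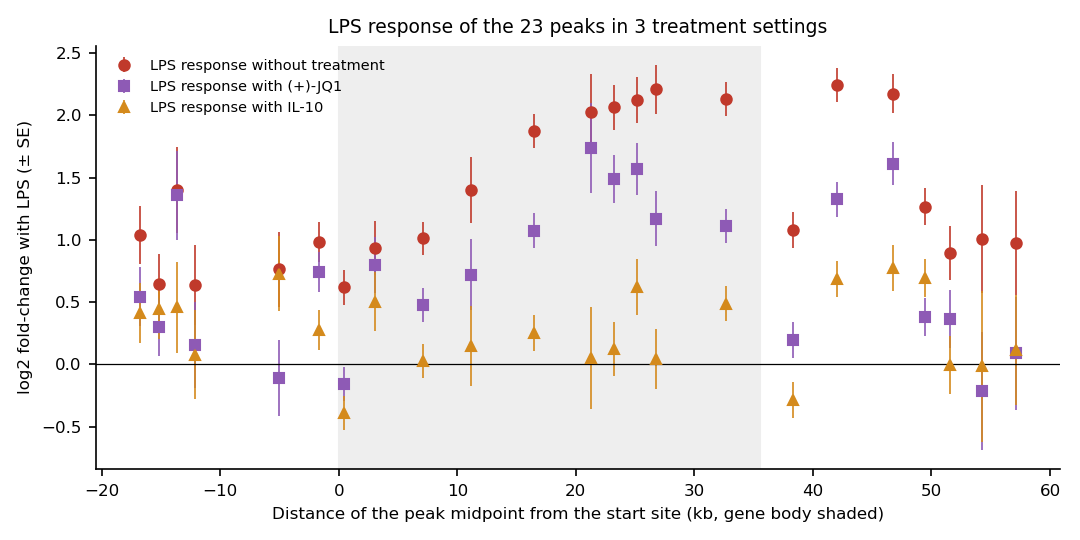
Log2 fold-change with LPS (± SE) of each of the 23 peaks against distance from the start site in kb, in untreated, (+)-JQ1-treated and IL-10-treated cells, with the gene body shaded. The response without treatment reaches 2.24 at 42.0 kb, where that with (+)-JQ1 is 1.33 and that with IL-10 is 0.69.

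Taken as a whole list, peaks of genes of the same pathway were called higher and lower with LPS at similar rates. The list of 31 genes held the paralogs of Rasgef1b, the Rap GTPases, their exchange factors (GEFs) and GTPase-activating proteins (GAPs), the Ras GEFs, the Rap2 effector kinases and Icam1, an adhesion molecule linked to a circular RNA of Rasgef1b. Their windows of 25 kb around the gene body held 1024 peaks. Of these, 144 (14.1%) were higher and 123 (12.0%) lower with LPS, near the 11.7% and 10.2% over all tested peaks. The median log2 fold-change was -0.16. Rapgef2 held 51 of the 144 higher peaks and 1 of the 123 lower ones, so the balance depends on that gene.

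Single genes of the list differed widely, and the 9 with the largest shares called higher, or called lower, with LPS are named. Rapgef2, a Rap GEF, stood first, with 51 of 59 peaks higher and 1 lower with LPS (median log2 fold-change 1.23) and 39 of 59 lower with LPS + (+)-JQ1 against LPS (median -1.08). Among the Rap GTPases, 12 of 23 peaks at Rap1b, 6 of 11 at Rap2c and 6 of 17 at Rap2b were higher with LPS, and none was lower. At Icam1 it was 12 of 22, and at Rasgrp1, a Ras GEF, 12 of 29. Lower with LPS were 6 of 16 peaks at the paralog Rasgef1a, 10 of 25 at the Ras GEF Rasgrp3 and 10 of 29 at Sipa1l2, a Rap GAP. The other paralog, Rasgef1c, had 1 of 20 peaks higher and 1 lower. With LPS + (+)-JQ1 against LPS, 60 of the 1024 peaks were lower (5.86%), where 3.48% of all tested peaks were. With Rapgef2 set aside the falls were few, with 5 at Rasgrp1, 2 each at Rap2c, Rap1gap2 and Map4k4, and at most 1 at each other gene. Icam1 had 0 falls in that comparison and a median of 0.02.

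Likeness to the Rasgef1b window was measured by Pearson's r of log2 window sums over the 18 libraries, for 18488 protein-coding genes. The libraries share their groups, mice and scaling, so r is a description. The median gene had an r of 0.196, and 126 genes exceeded 0.9. The 5 most like were Gm2382 (0.980), Ebpl (0.979), Hemk1 (0.972), Kpna3 (0.971) and Tnfrsf11a (0.970). Kpna3 encodes an importin that carries proteins into the nucleus, and Tnfrsf11a encodes RANK, the receptor that drives osteoclast formation. Ebpl and Kpna3 are neighbours on chromosome 14 with overlapping windows, so they are not separate observations. Picking genes by r favours those that share the order of the groups. All 5 were highest with LPS, intermediate with LPS + (+)-JQ1, and lower with LPS + IL-10, but over a smaller range than Rasgef1b. Gm2382 went from 55.1 ± 6.2 CPM unstimulated to 133 ± 1.2 with LPS, 94.6 ± 12.9 with LPS + (+)-JQ1 and 62.8 ± 5.9 with LPS + IL-10 (SD, n = 3). Tnfrsf11a went from 190 ± 15.2 to 269 ± 6.7, 219 ± 14.7 and 178 ± 7.2 CPM. With Spearman's rho, or with the 6 group means, 1 of these 5 remained among the 5 most like.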

How the data were processed

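ATAC-seq reads were processed by the authors with the PEPATAC pipeline at its default settings. Unique alignments to mm9 came from Bowtie2, peaks were called per library with MACS2 and classed with ChIPseeker, and raw counts per peak of the union set were deposited, with no normalization and no pooling. Which tool counted reads over the union set, and whether those counts used shifted cut sites, are not given in the sources used here. The union table has 6 further columns that match no sample, and these were not used. Groups came from the sample labels.

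The counts of all 18 libraries entered one edgeR 4.0.16 quasi-likelihood fit in R 4.3.3 (TMM, filterByExpr over the 6 groups, no block), with Benjamini-Hochberg adjustment over all tested peaks. Peaks were called at a Benjamini-Hochberg FDR below 0.05 with an absolute log2 fold-change over 0.5. An SE is the log2 fold-change divided by the root of F. The script was tested on simulated data. CPM were computed from the counts with TMM-scaled totals. For summed CPM the test was an exact permutation of libraries, two-sided (smallest p 0.1, or 0.25 in pairs).

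Peak coordinates are as deposited. Named were the peaks over annotated start sites, the 6 with the highest mean CPM and the 4 with the largest called rises and falls with LPS (no fall was called). Other peaks given by their distance follow the run along the gene and were chosen after their values were seen. The members, the gene list and the markers were chosen with earlier results of these data known. DESeq2 1.42.0 and other scalings, filters, windows and designs were alternatives. Genes and sequence came from GENCODE M1 and the mm9 genome.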

Additional observations from a re-analysis of the deposited data

Results flagged for a closer look

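The LPS response differed between (+)-JQ1-treated and untreated cells in 7 members, by the test of the interaction in edgeR. Of all tested peaks 3.18% were called lower by it. The interaction shares the LPS libraries with the comparison that chose the locus, which favours values below 0. It was called in 5 members with total-count scaling, where 0.947% of all peaks were called lower. Without replicate 2 it was called in 0 members, where 0.0448% of all peaks were called lower. The difference (with minus without (+)-JQ1, log2) was -1.04 in the intronic peak at 26.8 kb (adjusted p = 0.0307) and -1.02 in the broadest member (0.000629). It was -0.92 in the flank peak at 42.0 kb (0.00348), -0.89 in the compact flank peak at 38.3 kb (0.00641) and -0.88 in the flank peak at 49.5 kb (0.00947). The peak over exons 4 to 8 had -0.80 (0.00986) and the start site peak -0.78 (0.0123). The groups of 3 libraries were too small for a search for single outlying libraries.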

How the results depend on the processing

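Each count of called members was recomputed under 9 other settings, and the window sum under other scalings and windows. For LPS, 17 to 20 of 23 members were called higher in all of them, where 6.58% to 13.1% of all peaks were. For LPS + (+)-JQ1 against LPS 8 to 11 were called lower, where 1.54% to 3.52% of all peaks were. For LPS + (+)-JQ1 against (+)-JQ1, 10 to 12 were called higher, where 3.87% to 6.3% of all peaks were. The samples are described as matched, but no source ties a replicate number to a mouse. Deviations from group means correlated by 0.0057 on average within a number (45 pairs, -0.082 to 0.064) and by -0.0029 between numbers (90 pairs), and 9 of 18 libraries correlated best with their own number. Fitting the number as a block changed no count of called members, so LPS still raised 19 of 23. With total-count scaling, (+)-JQ1 alone raised 1 and lowered 7 members (1.97% and 14.1% of all peaks), and IL-10 alone raised 0 (1.27%) and lowered 8 (8.58%). Leaving out one replicate gave 0 to 2 rises and 0 to 3 falls with (+)-JQ1 alone, against 2.19% to 9.74% and 0.545% to 2.96% of all peaks. With IL-10 alone it gave 0 to 2 rises and 3 to 6 falls, against 0.792% to 8.56% and 0.404% to 3.17% of all peaks. Lower interactions numbered 0 to 6, against 0.0448% to 4.87% of all peaks. Total-count scaling moved the window's log2 difference to 1.31 for LPS, -0.072 for (+)-JQ1 alone and -0.28 for IL-10 alone. Taking the peaks within 25 kb of the start site, which leaves out the far gene body and the flank past it, gave 1.19 for LPS, -0.46 for LPS + (+)-JQ1 against LPS, 0.37 for LPS + (+)-JQ1 against (+)-JQ1, -0.062 for LPS + IL-10 against IL-10 and -1.21 for LPS + IL-10 against LPS. For the gene list, DESeq2 called 13 peaks lower with IL-10 alone in place of 24. Both other measures of likeness kept 1 of the 5 genes named. Where no construction explains a change, the cause was not tested. Over the 8 named peaks, with the comparison that chose the locus left out, 290 of 315 alternative values of called results kept the call and 25 lost it. Of 189 for results with no call, 11 gained one. None of these calls reversed. Members with few counts, such as those at 54.2 and 57.1 kb, had an SE too large for a call.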

Other observations

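The nearest protein-coding neighbours of Rasgef1b lay outside its window and shared no peak with it. A930011G23Rik, whose 3′ end lies 44.3 kb before the start site of Rasgef1b, had 23 of 81 peaks higher and 0 lower with LPS (edgeR), with a median log2 fold-change of 0.26, and 1 of 81 lower and 2 higher with LPS + (+)-JQ1 against LPS. Prkg2, which encodes a cGMP-dependent protein kinase, lies 180 kb past the 3′ end of Rasgef1b. Its window held 1 peak, which was not called in these 2 comparisons and had a log2 fold-change of -0.34 with LPS.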
